A study of Mus musculus with 17 samples.

Results

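Contractile genes of myofibroblasts were described here: the rows of the deposited gene count matrix whose gene name was Acta2, Actg2, Tagln, Cnn1, Myl9, Myh11, Tpm1, Tpm2, Lmod1 or Des. All 10 names had 1 row each among the 55421 genes of the table, and all 10 passed the filter on low counts that left 10481 genes for testing. Lmod1 exceeded the filter's minimum of 10 CPM (counts scaled to a common library size) in 4 libraries of 1 group and in 1 other library, so it passed only through the group in which it was highest. Counts over the members in each comparison are therefore also given without it.

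Myofibroblasts are fibroblasts that have acquired the contractile machinery of smooth muscle, and they are best known in the lung as the cells that pull on and stiffen scarred tissue. Their stress fibres are built from smooth muscle actins, stabilised by tropomyosins, transgelin and calponin, and pulled by myosin motors whose regulatory light chain is phosphorylated to start contraction. Several of these genes are classical targets of serum response factor (Srf), which binds a DNA element called the CArG box together with cofactors of the myocardin family.

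RNA was sequenced from 17 cultures of lung cells, 1 per mouse, labelled as primary fibroblasts and grown through 1 passage. Every mouse, controls included, was Ephb4f/f; Col1a2-CreERT2, that is, it carried floxed alleles of the receptor tyrosine kinase gene Ephb4 and a tamoxifen-inducible Cre driven by the collagen gene Col1a2. CKO mice (conditional knockout) received 4-hydroxytamoxifen from 4 weeks of age at 1 mg per day for 5 days, and control mice received corn oil, so the drug and the deletion cannot be told apart. At 6 weeks of age both genotypes were given either intratracheal bleomycin at 1.2 U/kg, which injures the lung and leads to fibrosis, or PBS, and cells were collected on day 14. This gave 4 control PBS, 4 control bleomycin, 5 CKO PBS and 4 CKO bleomycin libraries. Bleomycin acted in the animal and not in the dish, and Cre acted only in cells that used the Col1a2 promoter.

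Library totals ranged from 66540022 to 120554468 counts. Ephb4 reached 13.1 to 65.1 CPM in control bleomycin, 2.32 to 33.4 in control PBS, 4.93 to 14.0 in CKO bleomycin and 4.01 to 23.6 in CKO PBS, so the CKO and control ranges overlapped with either treatment. Its log2 fold change, CKO against control, was -2.0 ± 0.79 (SE) after bleomycin and -0.73 ± 0.72 after PBS, with adjusted p = 0.22 and adjusted p = 1 in edgeR's quasi-likelihood test. In 3 libraries Xist and Y-linked transcripts went against the recorded sex: control bleomycin mouse 2, CKO bleomycin mouse 1 and CKO bleomycin mouse 2. These libraries may have been exchanged with others, so their labels of genotype and treatment may be wrong too. The labels were kept, and every CKO against control value after bleomycin depends on them. Ephb4 overlapped after bleomycin only through control mouse 2 (13.1 CPM) and CKO mouse 1 (14.0 CPM), both among these libraries. The next lowest control bleomycin library was mouse 3 at 35.3 CPM. The label of fibroblast was borne out unevenly. Summed over 14 fibroblast markers, control bleomycin libraries held 7211 to 13448 CPM, CKO bleomycin 23.6 to 1956, control PBS 16.5 to 9054 and CKO PBS 48.8 to 2553. Summed over 18 macrophage markers, the same groups held 1340 to 20880, 23851 to 43748, 10422 to 45923 and 24297 to 42527 CPM. In bulk samples fewer cells of a type and less RNA per cell cannot be told apart, and this applies to every value below.

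As a whole, the contractile genes were high in every control bleomycin library and lower and more scattered elsewhere. The mean log2 CPM over the 10 genes was 7.79 ± 0.20 (SD, n = 4) in control bleomycin, with a lowest library of 7.51 and a highest of 7.97. It was 4.09 ± 2.42 (SD, n = 4) in CKO bleomycin, 2.90 ± 2.87 (SD, n = 4) in control PBS and 3.08 ± 1.39 (SD, n = 5) in CKO PBS. CKO bleomycin mouse 2, at 7.05, was the fifth highest of all libraries and the only one outside control bleomycin above 6. The 10 genes took 0.497% to 0.882% of all counts in control bleomycin, 0.0134% to 0.322% in CKO bleomycin, 0.00648% to 0.174% in control PBS and 0.0176% to 0.163% in CKO PBS.

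**Figure D1:**
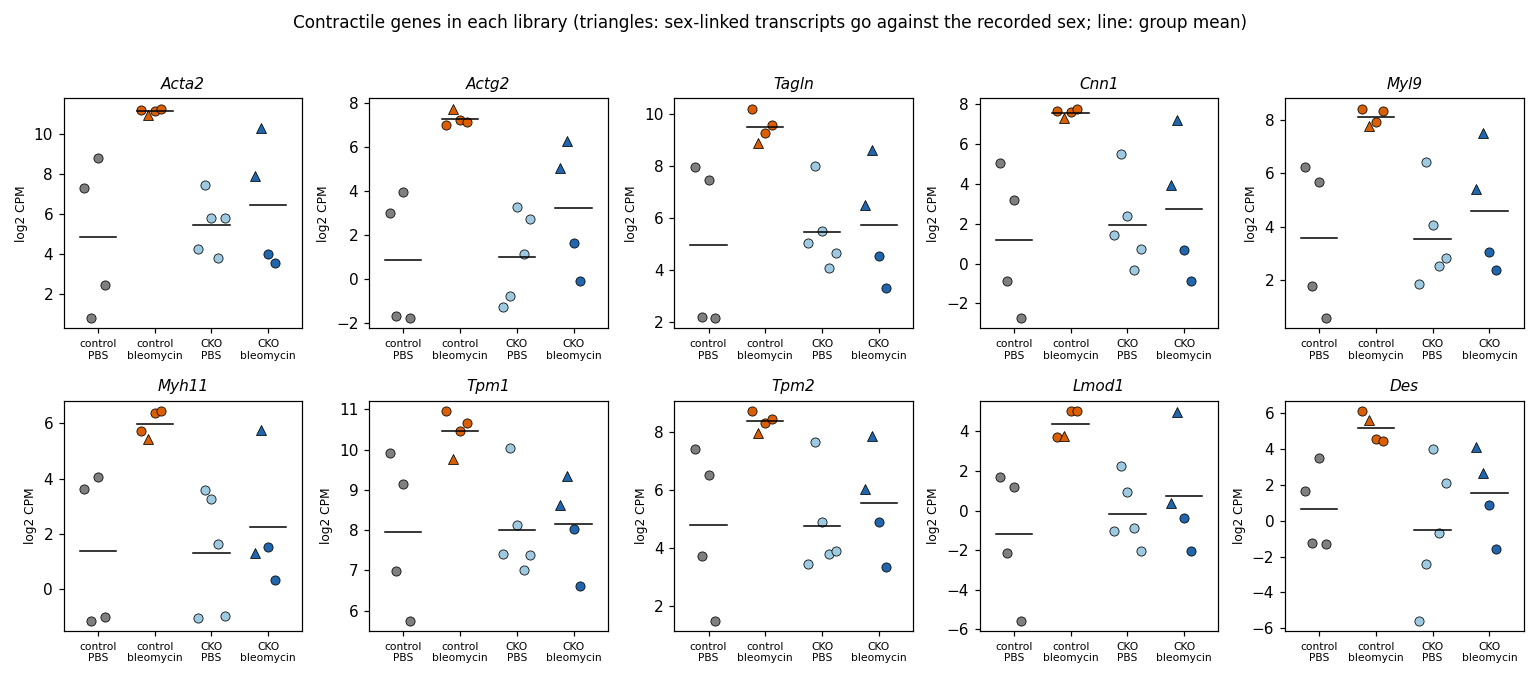
Each panel plots 1 contractile gene: the y axis is log2 CPM, the x axis the 4 groups, each point 1 library and each line the group mean, with triangles for the 3 libraries whose sex-linked transcripts go against the recorded sex. The 4 control bleomycin libraries sit together at the top of nearly every panel (Acta2 from 1984 to 2468 CPM), while CKO bleomycin spreads from near the PBS libraries up to mouse 2 (Acta2 from 11.7 to 1269 CPM).

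Acta2 encodes smooth muscle alpha-actin, the defining stress fibre protein of the myofibroblast (chromosome 19, 34241090 to 34255590, reverse strand, GRCm38). In control bleomycin mice 1 to 4 it measured 2378, 1984, 2241 and 2468 CPM. In control PBS mice 1 to 4 it measured 159, 1.74, 445 and 5.43 CPM. These groups were far apart, and the PBS libraries differed among themselves by more than the bleomycin libraries did. In CKO bleomycin mice 1 to 4 Acta2 stood at 238, 1269, 16.0 and 11.7 CPM, and in CKO PBS mice 1 to 5 at 19.0, 176, 56.9, 14.2 and 55.7 CPM. Every CKO bleomycin library was below every control bleomycin library, and CKO bleomycin mice 3 and 4 lay within or below the CKO PBS range.

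The RefSeq promoters of the set (GRCm38.p6, 250 bases before to 50 after each start) were searched for the CArG box, first exactly and then with 1 letter other than A or T allowed in its core. The box reads the same on both strands, so 1 scan covers both. Promoters were at hand for 7 of the 10 genes (Acta2, Cnn1, Myl9, Tpm1, Tpm2, Lmod1 and Des). An exact box was found in Myl9, and the relaxed form occurred at 2 places each in Acta2 and Myl9 and nowhere in the windows of the other 5. Among all 32851 promoters of the same length 1.63% held an exact box, 9.98% held the relaxed form and 0.822% held it 2 or more times. The 4 matches, only 1 of them exact, are shown with the box in capitals and 10 bases on either side. Whether they bear on the levels of these genes was not tested. The Acta2 boxes start 84 and 34 bases upstream of the start site (chr19:34255438-34255467 and chr19:34255388-34255417, reverse strand), and the Myl9 boxes start 161 and 99 bases upstream (chr2:156775293-156775322, the exact one, and chr2:156775355-156775384, forward strand). These distances are counted from the RefSeq start sites. The interval printed above for the Acta2 gene comes from another annotation and reaches 34255590, so both Acta2 boxes lie inside it. A match is a description of letters and not of binding.
Acta2, distal: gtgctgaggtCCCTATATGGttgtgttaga
Acta2, proximal: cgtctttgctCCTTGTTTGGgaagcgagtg
Myl9, distal: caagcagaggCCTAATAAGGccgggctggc
Myl9, proximal: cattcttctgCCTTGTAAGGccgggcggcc

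Actg2 encodes smooth muscle gamma-actin, best known from the gut wall (chromosome 6, 83512905 to 83536265, reverse strand). It measured 128, 214, 150 and 139 CPM in control bleomycin mice 1 to 4. In control PBS the values were 8.02, 0.292, 15.3 and 0.270 CPM. In CKO bleomycin they were 32.4, 75.7, 3.10 and 0.928 CPM. The CKO PBS libraries ranged from 0.390 to 9.60 CPM with a median of 2.17. Thus the lowest control bleomycin library exceeded the highest library of every other group, and within CKO bleomycin mice 1 and 2 exceeded every PBS library of both genotypes.

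Tpm1 and Tpm2 encode tropomyosins, rods that lie along the actin filament and set which proteins may bind it (chromosome 9, 67022590 to 67049406, and chromosome 4, 43514711 to 43523765, both reverse strand). Tpm1 measured 1990, 866, 1408 and 1625 CPM in control bleomycin and 396, 655, 259 and 97.6 CPM in CKO bleomycin. In control PBS mice 1 to 4 it measured 961, 126, 569 and 53.9 CPM. Control PBS mouse 1 exceeded control bleomycin mouse 2, so Tpm1 was the only member whose control groups overlapped. Among CKO PBS libraries it ranged from 130 to 1048 CPM, the highest being mouse 2. Tpm2 ranged from 251 to 425 CPM in control bleomycin, from 10.3 to 235 in CKO bleomycin, from 2.80 to 172 in control PBS and from 11 to 204 in CKO PBS.

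Tagln encodes transgelin (SM22-alpha), an actin cross-linker and an early smooth muscle marker (chromosome 9, 45929619 to 45936058, reverse strand). It measured 1198, 475, 622 and 776 CPM in control bleomycin and 90.0, 391, 23.6 and 9.98 CPM in CKO bleomycin. Control PBS libraries ranged from 4.43 to 249 CPM and CKO PBS libraries from 16.7 to 258 CPM, so both PBS groups held libraries far above others of their own group. Cnn1 encodes calponin, which binds actin and restrains the myosin motor (chromosome 9, 22099216 to 22109630, forward strand). Its values were 196, 153, 190 and 216 CPM in control bleomycin and 15.3, 147, 1.57 and 0.517 CPM in CKO bleomycin. Here CKO bleomycin mouse 2 came just below the lowest control bleomycin library, and the other CKO bleomycin libraries were at most 15.3 CPM. In control PBS Cnn1 ranged from 0.130 to 33.2 CPM and in CKO PBS from 0.772 to 44.2 CPM.

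Myl9 encodes the smooth muscle regulatory light chain of myosin, whose phosphorylation switches the motor on (chromosome 2, 156775420 to 156781658, forward strand). It measured 346, 218, 246 and 323 CPM in control bleomycin and 42.3, 185, 8.30 and 5.17 CPM in CKO bleomycin. The control PBS range was 1.47 to 75.1 CPM and the CKO PBS range 3.61 to 86.3 CPM. Myh11 encodes the smooth muscle myosin heavy chain, the motor itself and a late marker of the smooth muscle lineage (chromosome 16, 14194535 to 14291372, reverse strand). Its control bleomycin values were 52.2, 42.6, 81.7 and 86.2 CPM and its CKO bleomycin values 2.49, 53.8, 2.85 and 1.26 CPM. CKO bleomycin mouse 2 lay above 2 of the 4 control bleomycin libraries, and the other 3 libraries of its group lay within the PBS ranges, which ran from 0.439 to 16.6 CPM in controls and from 0.475 to 11.9 CPM in CKO mice.

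Lmod1 encodes leiomodin, which nucleates actin filaments in smooth muscle (chromosome 1, 135324807 to 135368065, forward strand). It measured 13.1, 13.7, 32.3 and 32.5 CPM in control bleomycin and 1.27, 31.4, 0.750 and 0.223 CPM in CKO bleomycin. The PBS libraries ranged from 0 to 3.23 CPM in controls, where mouse 4 had 0 counts, and from 0.223 to 4.70 CPM in CKO mice. Des encodes desmin, the muscle intermediate filament that ties contractile units together (chromosome 1, 75360329 to 75368579, forward strand). Its values were 68.0, 48.2, 23.3 and 21.3 CPM in control bleomycin and 17.1, 6.24, 1.81 and 0.317 CPM in CKO bleomycin. Des was the 1 member for which CKO bleomycin mouse 1, and not mouse 2, was the highest of its group. In control PBS it ranged from 0.391 to 11.2 CPM and in CKO PBS from 0 to 15.8 CPM, with mouse 3 the highest library in both PBS groups.

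Per kilobase of exon, Acta2 was the most abundant member in control bleomycin, with a mean of 1033 CPM per kb and a range of 903 to 1124. Here and below, the length was the union of exons over all annotated transcripts of a gene. It was 2196 bases for Acta2, with 2 transcripts, and 6485 for Tpm1, with 21. This can exceed the length of the transcripts in use and so lower the value, and the order of genes depends on it. Its range did not overlap that of the next gene, Tagln, at 386 CPM per kb (239 to 603). Tagln, Myl9 at 244 and Tpm1 at 227 CPM per kb overlapped with one another. Tpm2 at 116 CPM per kb (86.4 to 146) overlapped with Tpm1 (134 to 307) as well as with Actg2 at 101, and Cnn1 stood below both Tpm2 and Actg2 at 69.1. Des at 10.7, Myh11 at 8.64 and Lmod1 at 5.80 CPM per kb formed a lower set whose ranges overlapped each other and lay below that of Cnn1. No stretch of 75 bases, the read length, was shared between the transcripts of any member and those of its close relatives in the annotation, Acta2 and Actg2 included, so counts of members were not split among these copies.

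The first comparison asked how bleomycin in the animal bore on the contractile genes of cells from control mice. After bleomycin all 10 genes were higher, their median log2 fold change being 3.28 against -0.06 for all genes tested. The values ran from 1.78 ± 0.86 (SE) for Tpm1, a 3.44-fold difference, to 4.72 ± 1.54 for Actg2, a 26.4-fold difference. Acta2 was 14.8-fold, Cnn1 17.6-fold, Lmod1 16.1-fold and Des 10.7-fold higher, with log2 fold changes of 3.89 ± 1.60, 4.14 ± 1.84, 4.01 ± 1.67 and 3.42 ± 1.67. Without Lmod1 all 9 were higher, with a median of 3.14. The 2 groups did not overlap for 8 of the 9 members other than Lmod1, all but Tpm1, nor for Lmod1, where 5.72% of all genes tested were higher without overlap.

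None of the 10 passed edgeR's quasi-likelihood test after Benjamini-Hochberg adjustment at 0.05, and neither did any other gene, so the background was 0%. Adjusted p ran from 0.296 for Actg2 to 0.399 for Tpm2, and the smallest over all genes was 0.118. At an unadjusted p under 0.05 edgeR counted 5 of the 9 members other than Lmod1 higher (Acta2, Actg2, Cnn1, Myl9 and Myh11), and Lmod1 too, against 6.28% of all genes higher and 7.98% lower. Of the genes at that threshold 44.0% were higher, and 58.1% were higher when TMM factors were computed over the whole table, with all 10 members higher under either scaling. DESeq2 called Actg2 (adjusted p = 0.0146) and no other member, against 0.935% of genes called higher, and gave no adjusted p for Acta2 and Cnn1. The table's columns stood in 2 alphabetical series, here called column runs. With these as a covariate DESeq2 again called Actg2 alone of the members (adjusted p = 0.0136), against a background of 1.33%.

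The animal numbers in the labels begin with 11 or 12, here called the number series, and what the series stands for is not stated. All control bleomycin mice were of series 12, whereas 3 of 4 control PBS mice were of series 11. Within series 12 the mean log2 CPM over the members was 7.79 in 4 bleomycin libraries and 5.39 in the single PBS library. With the number series as a covariate the median log2 fold change of the members was 1.79. Fibroblast and macrophage markers moved with this comparison too. All 11 tested fibroblast markers were higher, with a median log2 fold change of 2.28, and 16 of 18 macrophage markers were lower, with a median of -0.84. With the mean of the fibroblast markers as a covariate the members' median was 0.80, still with all 10 higher, and with the macrophage mean it was 3.15. Their part in the result was not tested.

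The second comparison, CKO against control after bleomycin, addressed whether deletion of Ephb4 changed the contractile genes of cells from injured lungs. All 10 genes were lower in CKO mice, with a median log2 fold change of -2.22 against 0.01 for all genes. The differences ran from -2.66 ± 1.61 (SE) for Des, a 6.31-fold difference, to -1.44 ± 1.5 for Lmod1, a 2.72-fold difference. Acta2 was 5.91-fold lower and Tagln 5.97-fold lower, with log2 fold changes of -2.56 ± 1.51 and -2.58 ± 1.34. Without Lmod1 all 9 were lower, with a median of -2.24. The groups did not overlap for 8 of the 9 members other than Lmod1, all but Myh11, where 12.2% of all genes were lower without overlap. For Lmod1 they overlapped.

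No gene passed edgeR's adjusted threshold in this comparison either (0%), and the members' adjusted p ran from 0.227 for Tpm1 to 0.569 for Lmod1. At an unadjusted p under 0.05 only Tpm1 was counted (edgeR unadjusted p = 0.0309, adjusted p = 0.227). That is 1 of the 9 members other than Lmod1, and not Lmod1, against 9.18% of all genes lower and 11% higher. The share of such genes that were higher was 54.6%, or 44.2% with TMM factors over the whole table, and all 10 members were lower under either scaling. DESeq2 called no member, against 2.42% of genes called lower, and none with the column runs as a covariate, against 2.45%. It gave no adjusted p for Acta2 and Cnn1 in the former fit or for Cnn1, Myl9 and Tpm2 in the latter, in any of the 5 comparisons. With 1 of 9 counted at an unadjusted p, the members' share was near the background of 9.18%.

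A large part of the spread lay in 2 libraries. CKO bleomycin mice 1 and 2, the higher libraries of their group for 9 of the 10 members, were also those with discordant sex-linked transcripts, and both carried numbers of series 12 and stood in the second run of columns. Without all 3 discordant libraries, which leaves 2 CKO and 3 control bleomycin mice, the median log2 fold change was -5.64 and Acta2 stood at -7.46 ± 2.29. The 2 CKO mice left were of series 11 and the 3 control mice of series 12, so genotype and series cannot be told apart there. Within series 12 the members' mean log2 CPM was 7.79 in 4 control and 5.99 in 2 CKO bleomycin libraries, the latter being the discordant mice 1 and 2. In the fit without the discordant libraries 9 of the 10 members, Lmod1 included and Des not, had an unadjusted p under 0.05 against 8.58% of all genes lower. None passed after adjustment (edgeR adjusted p = 0.302 for Acta2). Leaving out CKO bleomycin mouse 2 alone gave a median of -4.07, and leaving out any other single bleomycin library gave medians from -2.30 to -1.82.

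Marker genes moved with this comparison as well. All 11 fibroblast markers tested were lower in CKO bleomycin (median log2 fold change -3.52), and the 3 untested ones (Lum, Tcf21 and Twist2) did not pass the filter. All 18 macrophage markers were higher, with a median of 1.17, and 5 of them had an unadjusted p under 0.05 in edgeR. With the fibroblast mean as a covariate the members' median was -0.62, with Lmod1 and Des above 0, and with the macrophage mean as a covariate it was -1.11. Genes listed as mural markers (of pericytes and vascular smooth muscle) were summed at 275 to 340 CPM in control bleomycin and 15.5 to 157 CPM in CKO bleomycin. All 6 tested were lower. Most of this sum came from Pdgfrb and Mcam, with means of 165 and 80.9 CPM in control bleomycin, where the sum had a mean of 307. The sum is therefore not a measure of mural cells alone. Of the 11 listed, Higd1b was at 0 in both bleomycin groups and Rgs5 was at most 3.47 CPM there. Pdgfrb, which fibroblasts also express, ranged from 143 to 192 CPM in control bleomycin and from 0.681 to 119 in CKO bleomycin. Ndufa4l2 ranged from 12.9 to 29.1 CPM in control bleomycin and was at most 1.35 in CKO bleomycin. Kcnj8 ranged from 0.685 to 14.3 CPM in control bleomycin and was at most 0.639 in CKO bleomycin. For Abcc9 these values were 0.843 to 8.12 and 0.664 CPM, so the lowest control libraries were near the CKO maxima for both. Mcam ranged from 59.7 to 99.6 CPM in control and from 12.1 to 69.4 in CKO bleomycin, and Npnt from 8.04 to 23.0 and from 1.76 to 14.4, with overlap. The 6 striated muscle markers summed to at most 3.54 CPM in any library. What part these cell types had in the result was not tested.

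**Figure D2:**
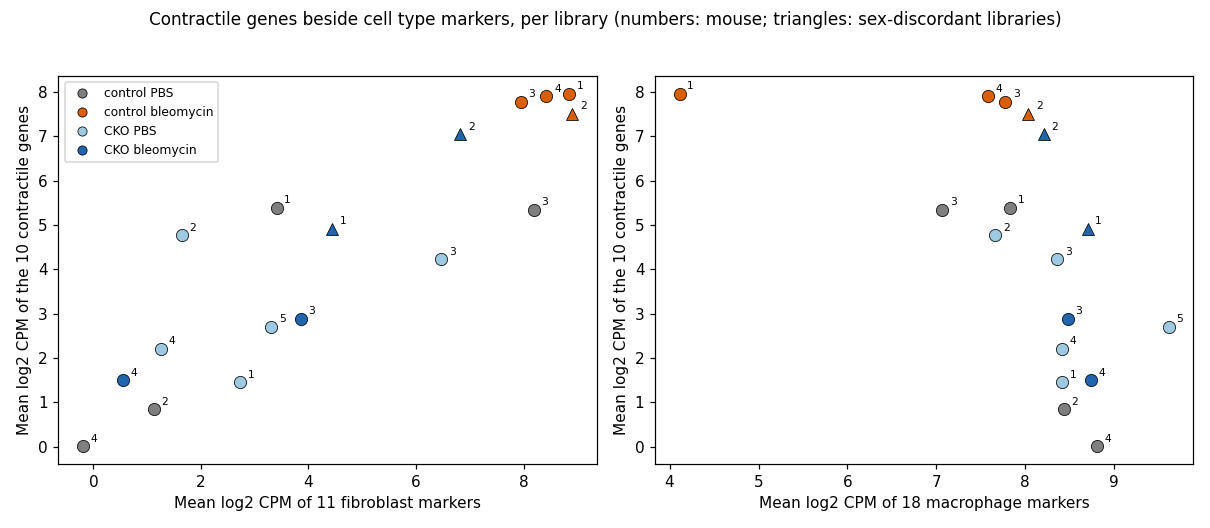
The y axis of both panels is the mean log2 CPM of the 10 contractile genes, and each point is 1 library labelled with its mouse number, with triangles for the 3 sex-discordant libraries. On the left, against the mean log2 CPM of 11 fibroblast markers, the 4 control bleomycin libraries lie at the upper right and control PBS mouse 3, with a fibroblast mean of 8.19, lies below them at 5.35. On the right, against 18 macrophage markers, control bleomycin mouse 1 stands alone at 4.11 and the other libraries lie between 7.07 and 9.62.

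Set against the fibroblast markers of the same library, the order of the groups depended on which markers were used. The members' mean minus the fibroblast mean was -0.74 ± 0.52 (SD, n = 4) in control bleomycin and 0.17 ± 0.82 (SD, n = 4) in CKO bleomycin on the log2 scale. It was -0.23 ± 1.99 (SD, n = 4) in control PBS and -0.005 ± 2.10 (SD, n = 5) in CKO PBS. Without collagens in the marker list the means were 0.79 in control bleomycin, 1.05 in CKO bleomycin, 0.62 in control PBS and 0.65 in CKO PBS, so control bleomycin went from the lowest of the 4 groups to the second highest. The PBS groups each held libraries at both ends. Control PBS mouse 1 and CKO PBS mouse 2 had more contractile than fibroblast signal, with differences of 1.98 and 3.13. They also held the highest summed epithelial markers of all libraries, 1806 and 2142 CPM, and the highest summed mesothelial markers, 681 and 992 CPM. Control PBS mouse 3 and CKO PBS mouse 3 showed the opposite, with differences of -2.84 and -2.24 and summed fibroblast markers of 9054 and 2553 CPM. Within those 2 PBS groups the former libraries had the highest Tagln, Tpm1, Tpm2, Cnn1 and Myl9, and the latter the highest Actg2 and Des.

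**Figure D3:**
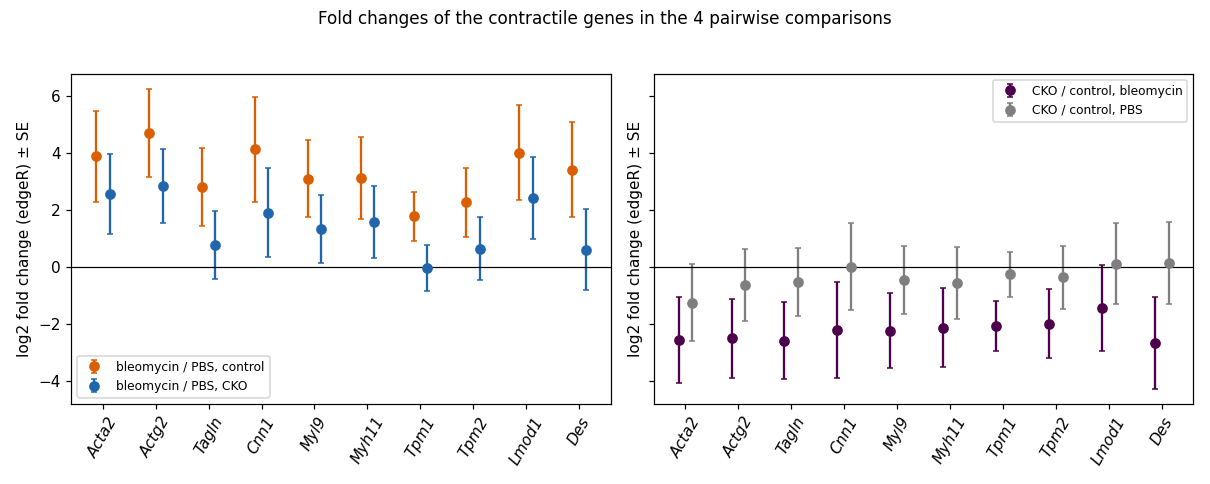
Points are log2 fold changes from edgeR and bars their standard errors, for the 10 contractile genes on the x axis. On the left, bleomycin against PBS is shown for control mice (median 3.28) and CKO mice (median 1.45), and on the right, CKO against control is shown after bleomycin (median -2.22) and after PBS (median -0.41).

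Between CKO and control mice given PBS, the difference in each contractile gene was smaller than its standard error. In CKO mice 7 of the 10 members were lower and 3 were higher (8 and 2 with TMM factors over the whole table), with a median log2 fold change of -0.41 against -0.02 for all genes. Without Lmod1 7 of 9 were lower, with a median of -0.46. The values ran from -1.25 ± 1.35 (SE) for Acta2 to 0.14 ± 1.45 for Des. The direction depended on the measure, since edgeR's estimates follow mean counts, which a few high libraries can set. On the log2 CPM scale the mean over the 10 members was 3.08 in CKO PBS and 2.90 in control PBS. There Acta2 averaged 5.43 in CKO PBS and 4.84 in control PBS, and Des -0.51 and 0.65, both against the sign of their fold changes. No member had an unadjusted p under 0.05, against 1.43% of genes higher and 0.563% lower, and no gene passed edgeR's adjusted threshold (0%). DESeq2 called no member. Intervals of this width do not show that the groups were alike, since the standard errors of the members ran from 0.79 to 1.54 on the log2 scale.

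Within CKO mice, bleomycin libraries were higher than PBS libraries for 9 of the 10 members (all 10 with TMM factors over the whole table), with a median log2 fold change of 1.45 against -0.03 for all genes. Without Lmod1 8 of 9 were higher, with a median of 1.33. Actg2 had the largest difference, 2.85 ± 1.30 (SE), followed by Acta2 at 2.57 ± 1.40, and Tpm1 was near 0 at -0.03 ± 0.79. Only Actg2 had an unadjusted p under 0.05 (edgeR unadjusted p = 0.0444, adjusted p = 1), against 0.248% of all genes higher. The groups overlapped for every member, where 0.0763% of genes were higher without overlap, and no gene passed after adjustment (0%). This direction changed without the 3 discordant libraries, which include CKO bleomycin mice 1 and 2: all 10 members were then lower after bleomycin, with a median of -1.81. These 2 are also the only CKO bleomycin libraries of series 12, so discordance and series cannot be told apart. Within series 12 the members' mean log2 CPM was 5.99 in CKO bleomycin and 3.11 in CKO PBS, and within series 11 it was 2.19 and 3.05. With the series as a covariate the median was 0.54. Leaving out mouse 2 alone gave a median of -0.57.

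Whether the bleomycin difference itself differed between genotypes was tested with the interaction term. All 10 estimates were below 0, as were the 9 without Lmod1, whose median was -1.81. The 10 ran from -2.80 ± 2.15 (SE) for Des to -1.32 ± 1.99 for Acta2, with a median of -1.80 against -0.003 for all genes. None had an unadjusted p under 0.05, where 1.57% of all genes lay below and 1.89% above (54.5% of such genes above, or 42.2% with TMM factors over the whole table), and the members' adjusted p ran from 0.916 to 0.936 in edgeR. The background of adjusted calls was 0%, and DESeq2 called no member. This term shares its libraries with the 4 pairwise comparisons and is not independent of them. Without the 3 discordant libraries the median was -5.27, and no member passed after adjustment (edgeR adjusted p = 0.76 for Acta2). The CKO bleomycin mice left there were of series 11 and the control bleomycin mice of series 12, so genotype and series cannot be told apart after bleomycin. With the number series as a covariate the median was -1.04 and Acta2 stood at -0.57.

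The smooth muscle members were then set beside other members of the same protein families, mostly non-muscle forms but with the striated actins Acta1 and Actc1 among the actins, as shares of the family's summed CPM per kb in each library. Acta2 and Actg2 together made up 24.8% ± 1.35 (SD, n = 4) of the signal of 6 actins in control bleomycin, 6.23% ± 9.39 (SD, n = 4) in CKO bleomycin, 2.14% ± 3.03 (SD, n = 4) in control PBS and 0.767% ± 0.741 (SD, n = 5) in CKO PBS. The summed actins varied far less, from 2376 to 5780 CPM per kb over all libraries. Tagln took 75.5% ± 5.05 (SD, n = 4) of the transgelins and Myl9 66.3% ± 3.19 (SD, n = 4) of the regulatory light chains in control bleomycin. Over the 4 CKO bleomycin libraries the same shares ran from 3.06% to 75.2% and from 2.62% to 57.5%.

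Cnn1 reached 18.5% to 25.4% of calponins in control bleomycin and 31.2% in CKO bleomycin mouse 2, the highest of any library. Myh11 stayed a minor heavy chain everywhere, at 5.47% to 8.36% in control bleomycin and at most 9.39% elsewhere. Des made up 2.05% to 6.34% of desmin plus vimentin in control bleomycin and at most 2.78% in any other library. For actin and the light chain every control bleomycin library was above every other library, whereas for transgelin, calponin, the heavy chain, tropomyosin and desmin over desmin plus vimentin the ranges overlapped.

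**Figure D4:**
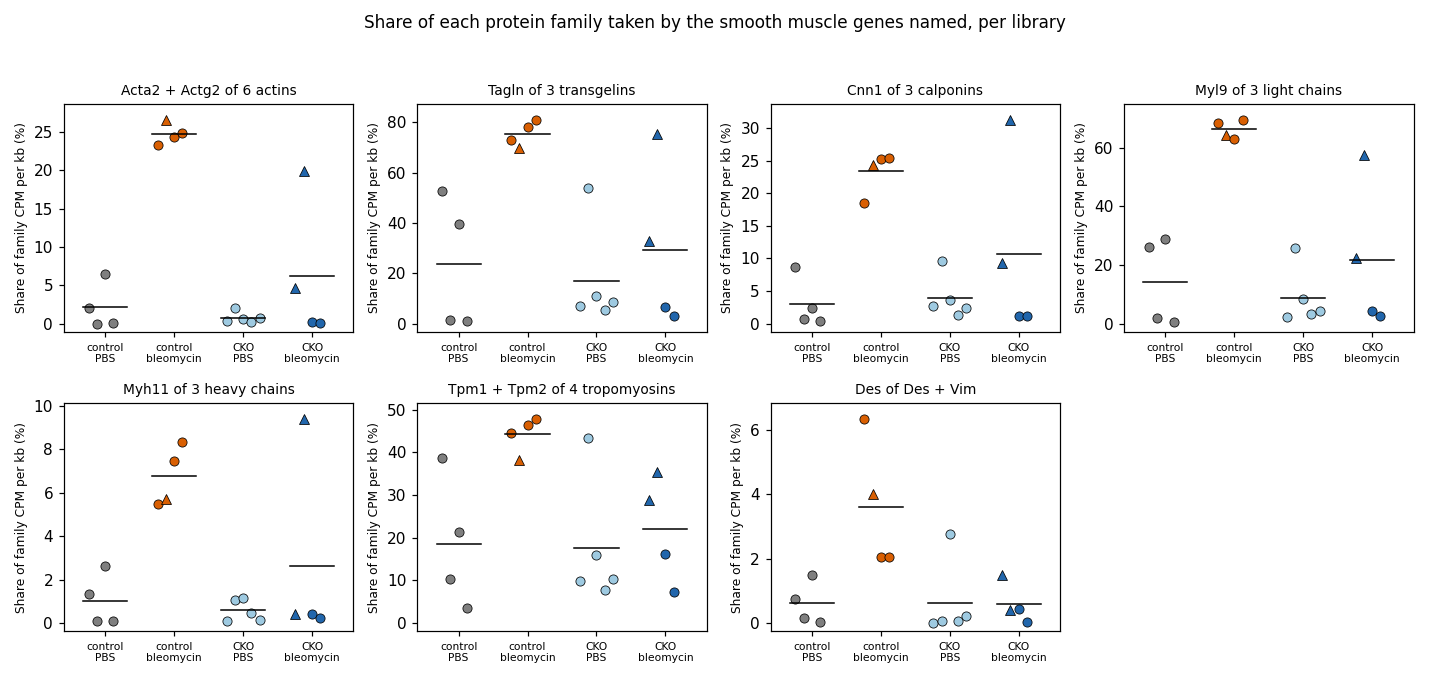
Each panel gives, per library, the percentage of a protein family's CPM per kb that came from the smooth muscle genes named above it, with groups on the x axis, a line at each group mean and triangles for the 3 sex-discordant libraries. Control bleomycin lies between 23.3% and 26.6% for actin and between 62.8% and 69.4% for the regulatory light chain, and CKO bleomycin mouse 2 is the library of its group nearest to those values.

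The 18 listed paralogs were mostly non-muscle forms. The striated muscle genes Acta1, Actc1, Lmod2 and Lmod3 were among them, and so was Myl6, a myosin light chain that is neither regulatory nor particular to non-muscle cells. Over the 14 tested the median log2 fold change was 0.24 for bleomycin against PBS in controls and -0.23 for CKO against control after bleomycin. Without Acta1, the only striated gene tested, the medians were 0.16 and -0.16. Acta1 itself stood at 0.78 ± 1.79 (SE) and -3.05 ± 1.93. Actb, the common cytoplasmic actin, had values of -0.17 ± 0.27 (SE) and 0.01 ± 0.27, and Vim (vimentin) 0.59 ± 0.56 and 0.002 ± 0.56. After bleomycin 4 of the 14 were lower in CKO at an unadjusted p under 0.05 (Cnn2, Cnn3, Myh10 and Tpm4), against 9.18% of all genes, with log2 fold changes from -2.48 ± 1.13 for Cnn3 to -0.89 ± 0.29 for Tpm4. DESeq2 called Tpm4 lower (adjusted p = 0.0496), though not with the column runs as a covariate (adjusted p = 0.0562). Myl12b, a non-muscle regulatory light chain, went the other way: it was higher in CKO by 0.95 ± 0.30 on the log2 scale (edgeR adjusted p = 0.204, DESeq2 adjusted p = 0.0457, and 0.0528 with the column runs). In control mice it was lower after bleomycin, at -1.10 ± 0.30 (edgeR adjusted p = 0.268, DESeq2 adjusted p = 0.025).

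Among 21 further genes of the smooth muscle apparatus, 14 were tested, and 13 of these were higher after bleomycin in controls, with a median log2 fold change of 1.05. Of these 14 genes 3 were higher at an unadjusted p under 0.05 (Csrp1, Vcl and Flna), against 6.28% of all genes. In CKO against control after bleomycin 13 of 14 were lower, with a median of -1.26, 6 of them at an unadjusted p under 0.05 (Smtn, Csrp1, Vcl, Flna, Lpp and Pdlim7) against 9.18% of all genes, and 7 without overlap against 12.2%. Csrp1, a LIM protein abundant in smooth muscle, differed by -1.85 ± 0.49 (SE) with adjusted p = 0.195 in edgeR and 0.0144 in DESeq2. Flna, the actin cross-linker filamin A, differed by -0.75 ± 0.25, and Smtn (smoothelin) by -2.39 ± 1.02. Flna passed in DESeq2 with the column runs (adjusted p = 0.032, and 0.0255 for bleomycin in controls) and not without them or in edgeR, and Smtn passed in none of these.

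Of 12 regulators of the programme, 11 were tested, and Myocd, the myocardin gene, did not pass the filter, at 0.971 to 1.79 CPM in control bleomycin and at most 1.38 CPM elsewhere. Srf was 0.52 ± 0.20 (SE) higher on the log2 scale after bleomycin in controls and -0.57 ± 0.20 in CKO against control after bleomycin. Mrtfb, one of its cofactors, showed -0.65 ± 0.31 and 0.92 ± 0.31 in these 2 comparisons, and Mrtfa 0.42 ± 0.19 and 0.002 ± 0.19. Tgfb1, the main inducer of myofibroblasts, stood at -0.74 ± 0.40 and 0.71 ± 0.40. None of the 11 passed after adjustment in edgeR or DESeq2 in either comparison.

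For each member the gene with the nearest pattern across the 17 libraries was found by the root mean square (RMS) distance of log2 CPM values, each centred on its own mean. Among themselves, Myl9 and Tpm2 were nearest, 0.54 apart, and Tagln and Myl9 were 0.55 apart. Actg2 and Des were each other's nearest member at a distance of 1.35, and Acta2 was nearest to Tagln at 1.05. For Tagln, Cnn1 and Myl9 no gene outside the set was nearer than another member. These distances grow with a gene's own spread, so their sizes do not rank the members by likeness of pattern. The SD of log2 CPM over the libraries ran from 1.58 for Tpm1 to 3.52 for Cnn1. The median distance to all other genes was 1.60 for Tpm1 and 3.45 for Cnn1. Tpm1, with the smallest spread, had the smallest distance outside the set, 0.29 to the calponin paralog Cnn2. For it 138 genes were nearer than its closest member, Tpm2, at 0.73. Other nearest genes outside the set were Ildr2 for Acta2 at 0.86, Jph2 for Actg2 at 0.86, Fhl2 for Tpm2 at 0.44, Klhl13 for Myh11 at 0.74, Adamts5 for Lmod1 at 0.80 and Col6a3 for Des at 1.21.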

How the data were processed

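Total RNA of cultured lung cells was sequenced from 17 mice as stranded, paired 75-base reads. The deposited counts, 1 whole number per gene and library, were made by the authors: per the labels and methods, reads were trimmed with Cutadapt (1.18 in the submitters' processing notes), aligned to GRCm38 with HISAT2 2.1.0 and assembled with StringTie, whose companion script gave the counts. The methods name a batch number as covariate, but the batch of each library was not given in the sources used here. All value columns were matched to samples by title, and 0 were left out. Totals ran from 66540022 to 120554468 counts.

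A gene was kept where 2 or more libraries exceeded 10 CPM (10481 of 55421). They were tested together over all 17 libraries with edgeR 4.0.16 (R 4.3.3, quasi-likelihood, TMM factors) and Benjamini-Hochberg adjustment at 0.05. Printed CPM are relative to the TMM-scaled library size, log2 CPM have a prior count of 2, and a standard error is the log2 fold change over the root of F. DESeq2 1.42.0, RLE factors, other filters, covariates and left-out libraries were alternatives. The fit was checked on simulated counts. Each library is 1 mouse, so p-values measure the spread between mice, and cultures were not repeated within a mouse.

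The members and the gene lists were chosen with earlier results of these data known. Genes named are the members, genes of the lists, the nearest pattern per member and Ephb4. Gene positions came from the GRCm38 annotation GENCODE M21, and promoters from RefSeq.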

Additional observations from a re-analysis of the deposited data

How the results depend on the processing

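edgeR's quasi-likelihood test called 0 genes in each of the 5 comparisons. DESeq2 called 166 genes for bleomycin in controls, 399 for CKO after bleomycin, and 1 each for CKO after PBS and for bleomycin in CKO mice. With the column runs as a covariate DESeq2 called 231, 387, 1 for bleomycin in CKO mice and 1 for the interaction. Under both DESeq2 fits 1 member, Actg2, was called for bleomycin in controls. Leaving out 1 mouse at a time, edgeR called from 0 to 1 genes for CKO after bleomycin, the 1 without control bleomycin mouse 2. With the fibroblast marker mean as a covariate, Lmod1 (0.015) and Des (0.68) turned positive for CKO after bleomycin, as did Acta2 for CKO after PBS (1.00) and Des in the interaction (0.73), and Acta2 for bleomycin in CKO mice turned negative (-0.22). Without the sex-discordant libraries Acta2 (-2.27) and Actg2 (-0.97) turned negative for bleomycin in CKO mice. For CKO after PBS, Acta2 ranged from -2.07 to 0.25 when 1 mouse was left out, the highest without control PBS mouse 3. The members' median ranged over left-out mice from 2.89 to 4.01 for bleomycin in controls, from -4.07 to -1.82 for CKO after bleomycin, from -1.52 to 0.31 for CKO after PBS, from -0.57 to 2.43 for bleomycin in CKO mice and from -3.45 to -0.64 for the interaction. Without collagens in the fibroblast list, the members' mean minus the marker mean was 0.79 in control bleomycin and 1.05 in CKO bleomycin. Apart from those changed by their construction (fewer libraries, another marker list), the cause was not tested. TMM factors over the whole table were added as an alternative after seeing the data. No paired analysis was possible because the mouse numbers only name animals and no label ties a mouse of one group to a mouse of another. Values under 3 counts, as for Lmod1 in control PBS mouse 4, are below what the depth resolves.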
